A study of Mus musculus with 6 samples.

Results

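The vascular endothelial growth factor (VEGF) family was examined through 9 genes chosen by name and function and by no threshold on a measured value, although earlier results of these data were known: the ligands Vegfa, Vegfb, Vegfc and Pgf, the receptor tyrosine kinases Kdr, Flt1 and Flt4, and the co-receptors Nrp1 and Nrp2. They are 9 of the 19057 genes that had a probe with a single gene symbol on the array. RNA of P8 (postnatal day 8) mouse retina was hybridized to Illumina Mouse-WG6 BeadChips, 1 mouse per array, with 3 mice in each of 2 groups. The first group were Lrp5 knockout mice of the strain B6.129P2-Lrp5tm1Dgen/J, called Lrp5-/- here, and the second were C57BL/6J mice, called WT. The knockout was present in every cell of the mouse, the controls came from a separate stock rather than, as far as the sources state, from the same litters, and no treatment is stated. Lrp5 is a co-receptor for Norrin and other Wnt ligands, and the comparison asked which retinal transcripts differ when it is missing.

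VEGF-A is the main growth signal for blood vessels in the developing retina. Astrocytes ahead of the vessel front, and later neurons and Muller glia, release it where oxygen is low, because the hypoxia-inducible factors activate its gene. It acts on endothelial cells through Kdr (VEGFR2), the main signalling receptor. Flt1 (VEGFR1) binds VEGF-A tightly with weak signalling and, as a soluble form, acts as a trap. Flt4 (VEGFR3) is the receptor of VEGF-C, and neuropilins hold ligand and receptor together while also serving as receptors of the class 3 semaphorins.

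Vegfa was the member with the clearest difference, so the sequence just upstream of its gene is shown. The 250 bases before the annotated start site lie on chromosome 17 (chr17:46032378-46032627, minus strand, GRCm38.p6, RefSeq) directly outside the gene, which spans positions 46016993 to 46032377. Capitals mark the GC boxes (GGGCGG on either strand), the motif bound by Sp1-type factors.
Vegfa upstream window: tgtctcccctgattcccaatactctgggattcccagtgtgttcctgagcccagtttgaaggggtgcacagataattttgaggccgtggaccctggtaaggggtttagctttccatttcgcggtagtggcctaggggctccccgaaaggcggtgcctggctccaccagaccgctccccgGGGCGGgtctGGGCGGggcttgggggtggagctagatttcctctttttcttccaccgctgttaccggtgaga
This window held 2 GC boxes and no match to the core of the hypoxia response element (ACGTG or GCGTG, either strand), which says only that these letters are not in these 250 bases. Over the first listed window of each member, 9 of 9 held a GC box against 32.7% of the 32851 windows in the table, and 6 of 9 held a hypoxia core against 38.6%. The members' windows were also richer in G and C, at 59.2% to 76.4% against a median of 52.4%. The ETS core CCGGAA was found in 1 of 9 (12% of all windows), and a TCF/LEF motif (CTTTGAA or CTTTGAT) in 1 of 9 (7.48% of all windows). Unlike that of Vegfa, the first windows of Pgf, Kdr, Flt1 and Nrp1 lie inside the annotated span of their genes. A second listed window of Vegfa, inside the gene, held 2 hypoxia cores and was not counted.

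WT replicate 1 stood apart from the other arrays. It had 18167 probes detected (a detection p, against negative control beads, under 0.05) where the other 5 arrays had 20286 to 21388, the lowest mean non-normalized signal (200 against 303.8 to 430.7) and the highest residual SD (0.214 against 0.124 to 0.158 on the log2 scale). The members' fold changes are therefore given with and without it. WT replicate 2 had the highest mean non-normalized signal (430.7), where the arrays other than these WT replicates had 303.8 to 318.8. The only detected probe of Lrp5 (ILMN_2942097) read 99.2, 91.3 and 95.7 in Lrp5-/- and 46.8, 59.5 and 56.1 in WT, a direction opposite to a null label (log2 fold change 0.82, adjusted p = 0.0127 from limma). This probe was detected on 4 arrays, 1 of them WT, and so entered the test only through Lrp5-/-, the group where it was high. Its adjusted p therefore lends no support. The 3 other Lrp5 probes were detected on no array. Whether ILMN_2942097 lies in the deleted part is not known here, so the groups stand by their labels. Of the markers of retinal cells, 9 of 10 rod genes and 10 of 11 Muller glia genes were expressed. Expressed means that a probe was detected on at least 3 of 6 arrays, which held for 11097 of all 19057 genes.

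Of 22 member probes, 11 were expressed and 11 were detected on no array, which left 7 genes with a measured difference and 2, Pgf and Flt4, without one. No member probe passed an adjusted p of 0.05 in limma over all 20721 expressed probes, of which 24 (0.116%) did. At an unadjusted p under 0.05, 2 of the 11 were higher in Lrp5-/-, both of Vegfa, against 2.43% of all probes, and 0 were lower, against 2.43%. The groups did not overlap for 1 higher probe (of Vegfa, 5.74% of all probes) and 1 lower one (of Kdr, 4.96%). Without WT replicate 1, 1 of the 11 passed the adjusted p (0.41% of all probes). In the same fit 2 were higher at an unadjusted p under 0.05 (3.71%), again both of Vegfa, and 1 was lower, that of Flt1 (4.39%). Of the 11 probes, 8 had a log2 fold change under 0.2 in size, and their median was 0.01 against 0.00 over all probes.

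**Figure D1:**
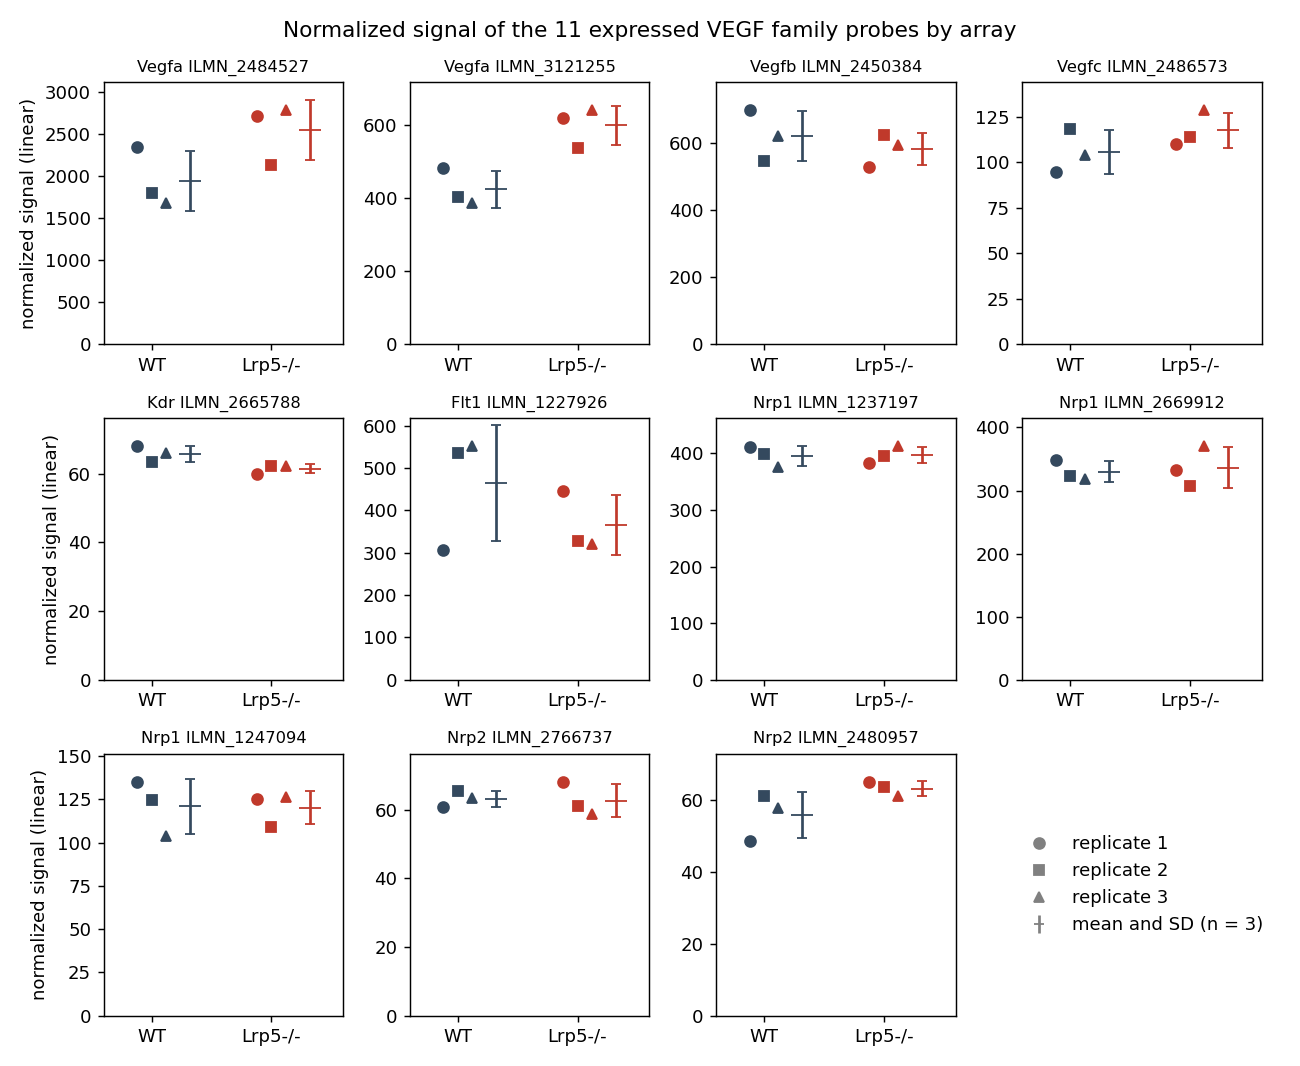
Normalized signal (linear, authors' rank-invariant scale) of each expressed member probe on each array, 1 panel per probe, with WT in blue and Lrp5-/- in red; symbols mark the replicate and the bar is the mean and SD (n = 3). The 3 Lrp5-/- points of Vegfa probe ILMN_3121255 lie at 537.3 to 639.1, above all WT points, while the WT points of Flt1 are split between 307.3 and 536.4 to 551.7.

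Vegfa had 2 expressed probes, both detected on all 6 arrays, and both read higher in Lrp5-/-. The probe with the brighter signal, ILMN_2484527 (annotated to NM_009505), had normalized signals of 2719.0, 2137.5 and 2783.4 in Lrp5-/- and 2351.9, 1801.7 and 1677.1 in WT. Here the highest WT array, replicate 1, lay above the lowest Lrp5-/- array, so the groups overlapped. The mean was 2546.6 ± 356 (SD, n = 3) in Lrp5-/- and 1943.6 ± 359 (SD, n = 3) in WT. The log2 fold change was 0.40 (SE 0.14, 95% interval 0.08 to 0.71), that is 1.32-fold, with an adjusted p of 0.906 from limma. Without WT replicate 1 it was 0.54 (adjusted p = 0.106).

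The second Vegfa probe, ILMN_3121255 (annotated to NM_001025250), had signals of 618.3, 537.3 and 639.1 in Lrp5-/- and 480.7, 403.2 and 385.6 in WT. Every Lrp5-/- array lay above every WT array, and WT replicate 1 was again the highest of its group. The log2 fold change was 0.50 (SE 0.11, 95% interval 0.26 to 0.75), or 1.42-fold, from 423 ± 50.6 to 598 ± 53.8 (SD, n = 3 each). It ranked 76 by p among all probes (unadjusted p = 8.5e-04) but did not pass the adjustment (adjusted p = 0.233, limma). Without WT replicate 1 it was 0.60 and passed (adjusted p = 0.0274). In retinal tissue, more RNA per cell and more cells that make it cannot be told apart, here and in the comparisons that follow.

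The 2 Vegfa probes moved together over the 6 arrays (r = 0.951, a description over 6 arrays of 2 groups, with shared sample preparation). The difference between them, ILMN_3121255 minus ILMN_2484527 on the log2 scale, was 0.11 larger in Lrp5-/- than in WT, with a within-group SD of 0.08. That difference did not pass the exact two-sided permutation test (p = 0.3, 1 pair compared, smallest possible p 0.1). The remaining Vegfa probe, ILMN_3045723, read 40.6 to 46.2 and was detected on no array. The named genes whose signals followed Vegfa ILMN_2484527 most closely over the 6 arrays were Ppp1r3g, which targets a phosphatase to glycogen (r = 0.991), and Ciart, a repressor of the circadian clock (r = 0.990). They are the highest of 39 probes of other genes with r at or above 0.95, a description of 6 arrays. Ppp1r3g was near background: it read 54.7 and 52.5 on WT replicates 2 and 3, where the lowest detected signals were 58.8 and 60.8.

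**Figure D2:**
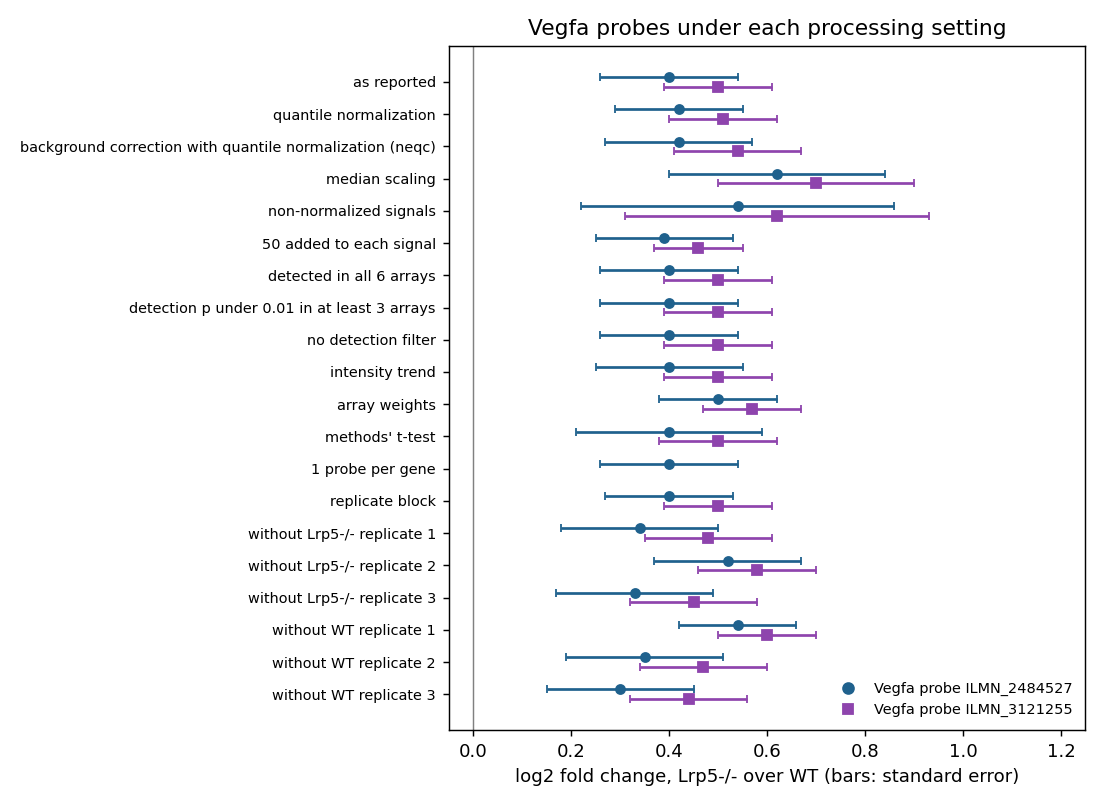
Log2 fold change (Lrp5-/- over WT, x axis) of the 2 expressed Vegfa probes under each processing setting and with each array left out (y axis); bars are the standard error. All values are above 0, from 0.30 to 0.62 for ILMN_2484527 and from 0.44 to 0.70 for ILMN_3121255.

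The other ligands showed smaller differences. Vegfb, which binds Flt1 and is known from heart and muscle, read 527.5, 622.6 and 592.7 in Lrp5-/- and 695.9, 545.7 and 619.1 in WT. The 2 ranges crossed, with the highest value on WT replicate 1. Its log2 fold change of -0.09 (95% interval -0.33 to 0.15) had an adjusted p of 0.989 and became -0.00 without that array. Vegfc, the ligand of Flt4 and the driver of lymphatic growth, read 110.0, 113.8 and 128.5 in Lrp5-/- and 94.5, 118.4 and 104.1 in WT. One WT array lay inside the Lrp5-/- range, and the log2 fold change was 0.16 (95% interval -0.08 to 0.39, adjusted p = 0.987, limma) and 0.08 without WT replicate 1, the lowest of the 6 arrays. On the fold scale the intervals ran from 0.79 to 1.11 for Vegfb and from 0.94 to 1.31 for Vegfc. Pgf, a ligand of Flt1 but not of Kdr, read 50.7, 57.6 and 58.5 in Lrp5-/- and 56.7, 56.6 and 55.3 in WT and was detected on no array, so it has no fold.

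Of the receptors, Flt1 had the widest spread. Its expressed probe ILMN_1227926 read 446.9, 327.9 and 319.9 in Lrp5-/- and 307.3, 536.4 and 551.7 in WT. WT replicate 1 was the lowest of all 6 arrays while the other WT arrays were the 2 highest. With all arrays the log2 fold change was -0.32 (SE 0.21, 95% interval -0.77 to 0.14, adjusted p = 0.987, limma). Without WT replicate 1 it was -0.59 (SE 0.13, 95% interval -0.89 to -0.30), with an unadjusted p of 0.00101 and an adjusted p of 0.117. A single array thus set the size of the Flt1 difference, and with neither choice did it pass the adjustment.

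Kdr was near background, which bounds what can be said of it. Probe ILMN_2665788 read 60.0, 62.3 and 62.2 in Lrp5-/- and 68.0, 63.3 and 66.1 in WT, and was detected on 2 of 3 arrays of each group. All Lrp5-/- values lay below all WT values, by as little as 1 unit of signal, and the log2 fold change of -0.10 (95% interval -0.28 to 0.09) had an adjusted p of 0.987 in limma and was -0.07 without WT replicate 1. Because a background of about 46.9 to 49.2 (the median of undetected probes) was part of each signal, the fold of a probe this dim is understated. The second Kdr probe and the second Flt1 probe were detected on no array, and neither were the 3 probes of Flt4, which read 29.3 to 64.9.

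**Figure D3:**
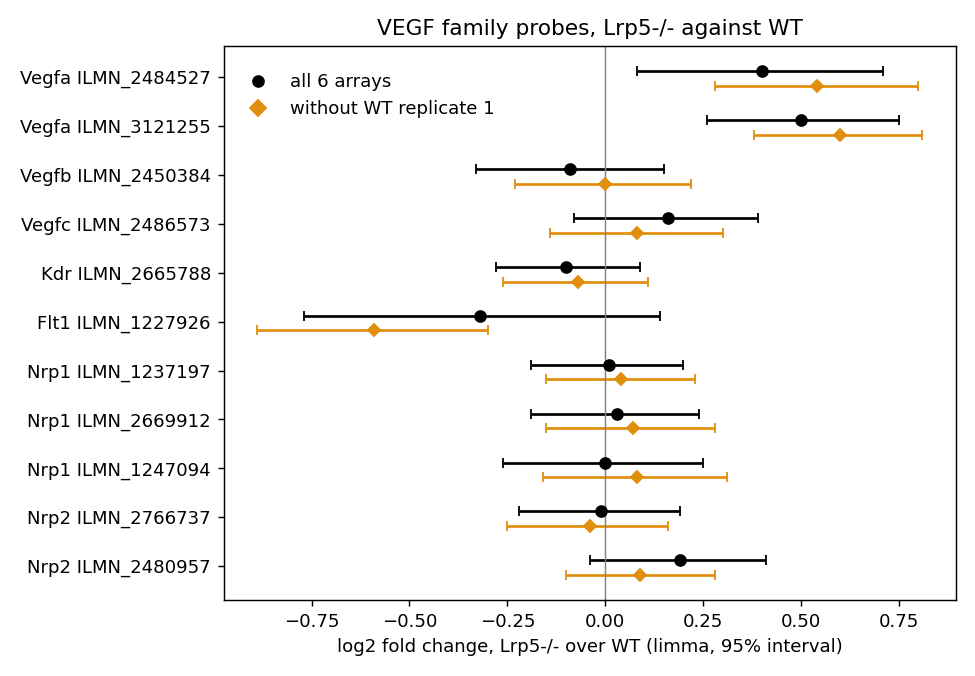
Log2 fold change (x axis, Lrp5-/- over WT) of each expressed member probe (y axis) with its 95% interval from limma, over all 6 arrays (black) and without WT replicate 1 (orange). The 2 Vegfa intervals lie above 0 in both, and that of Flt1 lies below 0 only without WT replicate 1, at -0.89 to -0.30.

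The neuropilins showed no difference that passed a test. Nrp1, which binds VEGF-A and Sema3a, had 3 expressed probes. The brightest, ILMN_1237197, read 383.5, 395.1 and 412.8 in Lrp5-/- and 410.9, 399.3 and 375.6 in WT. Both groups covered almost the same range, and the log2 fold change of 0.01 had a 95% interval of -0.19 to 0.20. The other probes gave 0.03 (-0.19 to 0.24) and -0.00 (-0.26 to 0.25), and on the fold scale the widest of the 3 intervals ran from 0.84 to 1.19. The 3 log2 fold changes without WT replicate 1 were 0.04, 0.07 and 0.08. Nrp2, which binds VEGF-C and Sema3f, had 2 expressed probes near background. ILMN_2480957 read 65.0, 63.5 and 61.1 in Lrp5-/- and 48.6, 61.1 and 57.8 in WT, touching at 61.1, with a log2 fold change of 0.19 (95% interval -0.04 to 0.41, adjusted p = 0.987) and detection on 3 of 3 and 1 of 3 arrays. The lowest value was that of WT replicate 1, and without it the log2 fold change was 0.09. ILMN_2766737 gave -0.01 (-0.04 without WT replicate 1), and 4 further Nrp2 probes were detected on no array.

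Endothelial genes mostly read lower in Lrp5-/-, the cell type in which the VEGF receptors are best known. Of 25 endothelial marker genes 16 were expressed. Their median log2 fold change was -0.51 and 15 of 16 were below 0. Adgrl4 (-1.16, adjusted p = 0.0046) and Cd93 (-0.90, adjusted p = 0.0302) passed in limma, against 0.116% of all probes. The exception was Emcn, at 0.25 (adjusted p = 0.982, limma), which was higher without overlap (5.74% of all probes). Without WT replicate 1, 9 passed, all lower, against 0.41% of all probes. Of these, Vwf was detected in WT only and so was tested only through the group where it was high. Vwf is also part of the median, the summed signal and the mean log2 signal given here. The summed signal of the list was 2136 to 2338 in Lrp5-/- and 3123 to 3731 in WT, so the groups did not overlap. The mean log2 signal of the 16 genes was 0.53 lower in Lrp5-/- (6.84, 6.82 and 6.72 against 7.18, 7.34 and 7.46), at the smallest p the exact permutation test can give here (0.1). The part of the endothelial share in the members' values was not tested.

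Set against that endothelial mean on each array, the members read as follows. Since the mean itself was 0.53 lower in Lrp5-/-, a gene with no difference of its own would read 0.53 higher here, so the values restate the members' own differences beside that of the endothelium. The log2 signal of Vegfa minus the endothelial mean was 4.57, 4.24 and 4.72 in Lrp5-/- and 4.02, 3.47 and 3.25 in WT, a difference of 0.93 (SD 0.33). For Vegfc the difference was 0.69, for Nrp1 0.54, for Nrp2 0.52, for Vegfb 0.44 and for Kdr 0.43, the last 4 near 0.53. Flt1 was at 0.21, and at 0.01 without WT replicate 1. The exact two-sided permutation test asks only whether a value differs from 0, and gave p = 0.1 for 5 genes, 0.2 for Vegfb and 0.6 for Flt1 (0.14, 0.233 and 0.6 after Benjamini-Hochberg adjustment over the 7). Under median scaling the p of Kdr was 0.3 (difference 0.36) and that of Vegfb 0.1 (0.56) in the exact permutation test. The endothelial mean is shared by the 7 values, so they are not separate pieces of evidence.

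The transcripts of the proteins that carry the VEGF signal inside the cell did not move as a group. The proteins and their activity were not measured. Of 47 genes of VEGF receptor signalling 30 were expressed, none passed the adjustment, 15 were above and 15 below 0, and the median was 0.00, as over all probes. The smallest p-values were those of Nos3, the endothelial nitric oxide synthase (-0.32), the adaptor Shc1 (-0.30), the small heat shock protein Hspb1 (0.34) and the adaptor Gab1 (-0.21). Nos3 is itself made by endothelium, and read 114.8, 118.2 and 107.1 against 142.3, 141.1 and 141.8, without overlap. Shc1 was also lower without overlap (4.96% of all probes), while Hspb1 was higher without overlap (5.74% of all probes). At an unadjusted p under 0.05, 2 genes of the list were lower and 1 was higher, against 2.43% of all probes in each direction.

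Of 23 receptor partners and VEGF-binding proteins 16 were expressed and none passed the adjustment with all arrays, while 4 were lower (2.43% of all probes) and 0 higher at an unadjusted p under 0.05. These were Dab2, an endocytic adaptor (-0.57, adjusted p = 0.0609), Ccn2, a matrix protein that binds VEGF-A (-0.67, adjusted p = 0.141), Ptprb, the phosphatase VE-PTP (-0.56, adjusted p = 0.767), and Cdh5, VE-cadherin (-0.21, adjusted p = 0.987). Dab2 read 64.7, 63.7 and 62.1 in Lrp5-/- and 85.4, 97.0 and 101.3 in WT, and Ccn2 read 473.0, 476.3 and 483.2 against 599.0, 822.3 and 881.5. Both were lower on every Lrp5-/- array (4.96% of all probes). Without WT replicate 1 both passed in limma (adjusted p = 0.00693 and 0.00142), against 0.41% of all probes. The list's median was -0.03. Of 12 class 3 semaphorins and plexins 5 were expressed and none passed, with Plxnd1 lowest in p (-0.21).

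Among 18 genes that endothelium is known to change in answer to VEGF, 12 were expressed and they did not move one way (median 0.05, 8 above and 4 below 0). At an unadjusted p under 0.05, 3 were lower and 2 higher, against 2.43% of all probes in each direction. The 2 higher genes, Esm1 and Adm, were undetected on all 3 WT arrays and entered the test only through Lrp5-/-, the group where they were high. Their p-values therefore lend no support and the differences are bounds. Both genes are also part of the 12, of the 8 above 0 and of the median given here, so those counts carry the same limit. Esm1, a tip cell gene, read 86.3, 75.7 and 81.9 in Lrp5-/- and 52.6, 56.1 and 48.3 in WT, at least 1.29-fold (adjusted p = 0.0354 in limma, and 0.0629 with no filter on detection). Adm, adrenomedullin, which is also a hypoxia target, read 68.4, 71.2 and 76.2 against 55.2, 52.5 and 49.5, at least 1.14-fold (adjusted p = 0.141, and 0.219 with no filter). The 3 lower genes were detected on every array and did not overlap (4.96% of all probes). They were Nid2, a basement membrane protein (-0.51, adjusted p = 0.564), the transcription factor Egr3 (-0.29, adjusted p = 0.816) and Pdgfb, which recruits pericytes (-0.33, adjusted p = 0.831). Nid2 passed in limma once WT replicate 1 was left out (-0.67, adjusted p = 0.0143), against 0.41% of all probes. Igfbp3 was likewise detected on every array and did not overlap, but was higher in Lrp5-/- (5.74% of all probes). It read 93.2, 88.1 and 95.1 against 82.8, 81.3 and 85.1 (0.15, adjusted p = 0.987, limma).

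Of 23 hypoxia target genes 16 were expressed, 14 of them with a positive log2 fold change, and the median was 0.20 against 0.00 over all probes. None passed the adjustment, and 8 were higher and 0 lower at an unadjusted p under 0.05, against 2.43% of all probes in each direction. Ankrd37 read 644.1, 675.8 and 775.8 in Lrp5-/- and 473.1, 498.3 and 508.8 in WT, a log2 fold change of 0.50 (adjusted p = 0.134). Pgk1, a glycolytic enzyme, read 3952.3, 3773.8 and 4096.8 against 2637.8, 3462.3 and 3105.0 (0.37, adjusted p = 0.702), and the kinase Pdk1 had 0.33 (adjusted p = 0.69). Groups did not overlap for 5 of the 16, Ankrd37, Pgk1, Pdk1, P4ha2 and Aldoa, all higher (5.74% of all probes). The summed signal of the list was 31997 to 35810 in Lrp5-/- and 28757 to 33395 in WT, which overlap. The 8 genes for the regulators, all expressed, had a median of 0.13 (0.06 without WT replicate 1), with Hif1a at -0.01 and Epas1 at 0.06. The prolyl hydroxylases Egln1 (0.28), Egln2 (0.23) and Egln3 (0.25) were higher by their values, and none of the 8 passed the adjustment. At an unadjusted p under 0.05 in limma, 2 of the 8 were higher and 0 lower, against 2.43% of all probes in each direction. These were Egln1 and Egln2, which were also higher without overlap (5.74% of all probes).

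**Figure D4:**
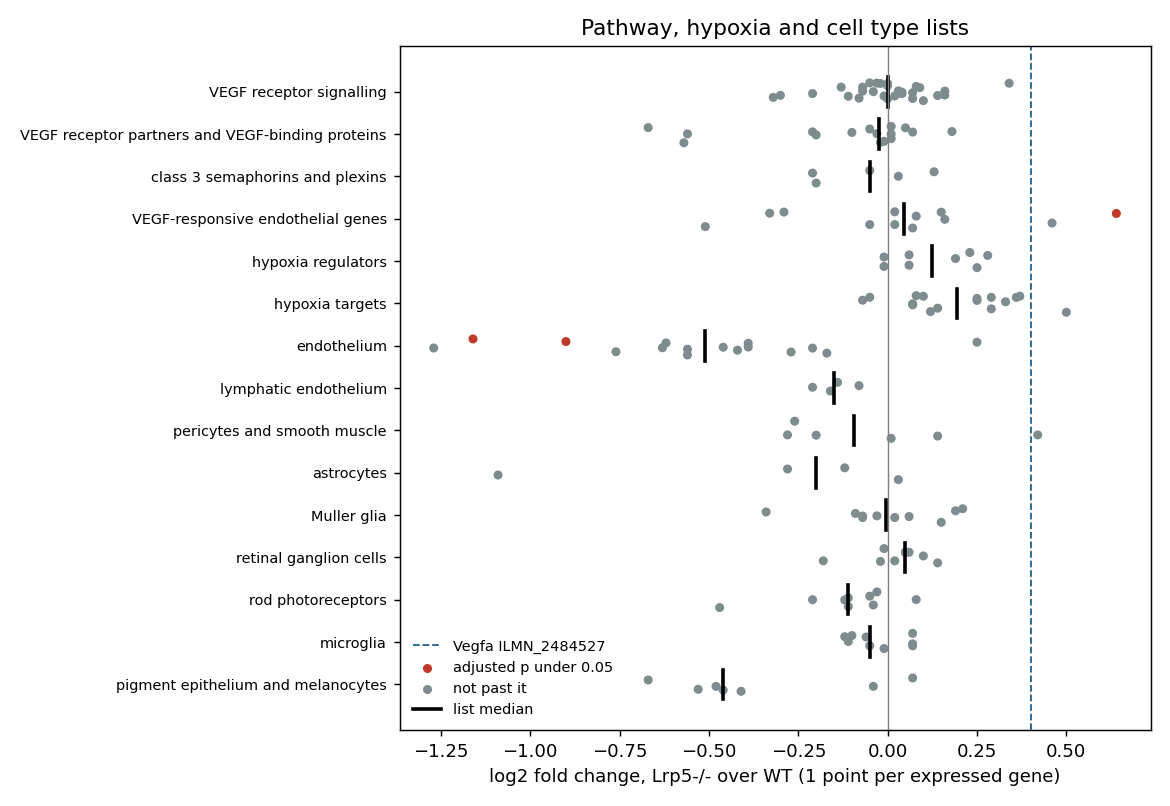
Log2 fold change (x axis, Lrp5-/- over WT) of the expressed genes of each list (y axis, 1 point per gene), with the list median as a black bar and the value of Vegfa probe ILMN_2484527 as a dashed line. The hypoxia target median is at 0.20 and the endothelial median at -0.51.

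Markers of further cell types were compared, among them astrocytes, Muller glia and neurons, which supply VEGF-A. The 10 expressed Muller glia genes of 11 had a median of -0.01, the 9 of 11 ganglion cell genes 0.05, and the 9 of 11 microglia genes -0.05, and none passed. The 4 of 6 astrocyte genes had a median of -0.20, and none passed. At an unadjusted p under 0.05 in limma, 2 of them were lower, against 2.43% of all probes, and 0 were higher. These were Gja1 (connexin 43, -1.09) and Pdgfra (-0.28), both lower without overlap (4.96% of all probes). Genes listed as lymphatic markers (4 of 4 expressed) had a median of -0.15, which does not show that lymphatic cells were present. Pericyte and smooth muscle genes (6 of 11) had a median of -0.10, which was 0.01 without WT replicate 1, and none passed. At an unadjusted p under 0.05 in limma, 1 was higher and 1 lower, against 2.43% of all probes in each direction. Acta2 (0.42) was higher without overlap (5.74% of all probes) and Abcc9 (-0.20) lower without overlap (4.96%). The 7 of 11 pigment epithelium genes had a median of -0.46, but it rested on single arrays: it was -0.23 without WT replicate 1, -0.25 without WT replicate 3 or without Lrp5-/- replicate 2, -0.77 without WT replicate 2 and -0.79 without Lrp5-/- replicate 3. Their summed signal ran from 1745 to 3607 in Lrp5-/- and from 1688 to 4723 in WT, and its part in the members' values was not tested.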

How the data were processed

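Total retinal RNA of 3 Lrp5-/- and 3 WT mice, biological replicates by the study's methods, was measured on 6 arrays. The deposited intensity of each probe is linear, and the authors normalized it with the rank invariant algorithm of Bead Studio Gene Expression 3.4.0; a non-normalized table was also deposited. The deposited detection p-value compares a probe with negative control beads and is equal in both tables. Of 45281 probes, 34885 had 1 gene symbol in the platform annotation, 18 several and 10378 none here; 1 probe of Nrp2 with 2 symbols was left out. Symbols were updated through Entrez identifiers (34807 matched, 0 changed).

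The log2 of each signal, floored at 16, entered a limma fit without a block (version 3.58.1, lmFit and eBayes, under R 4.3.3). It covered the 20721 probes detected (p under 0.05) on 3 or more arrays, and Benjamini-Hochberg adjustment ran over all of these. The code was tested on simulated data. Lists use 1 probe per gene, that with the highest mean log2 signal. A probe undetected on every array of a group got a bound against the lowest detected signal of each array, which leaves out sampling error. Array number and background limit the precision. Single values were compared by exact permutation over samples (scipy 1.17.1). Named genes are all member probes, list genes past the adjusted p or up to 4 with the smallest p, Lrp5, and the 2 genes most correlated with Vegfa; other list members were named for their roles. The members and lists were chosen with earlier results of these data known. SAM, the methods' own test, was not run. Alternatives were other normalizations, 50 added, filters, tests, 1 probe per gene, a replicate block and each array left out.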

Additional observations from a re-analysis of the deposited data

How the results depend on the processing

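Both Vegfa probes stayed above 0 in every setting and with each array left out. ILMN_2484527 passed the adjusted p in none of them. With an array left out, its unadjusted p in limma was under 0.05 in 2 of 6 fits and at most 0.0787. Its unadjusted p was 0.106 with non-normalized signals in limma and 0.108 with the methods' t-test. ILMN_3121255 passed the adjusted p only with array weights (0.57, adjusted p = 0.0150) and without WT replicate 1, and its values with an array left out ran from 0.44 to 0.60. The array weights gave WT replicate 1 the lowest weight (0.296 against 0.926 to 1.616), so these fits are not separate pieces of evidence. The number of member probes past the adjusted p was 0 in the other settings, 1 with array weights and 0 to 1 with an array left out. At an unadjusted p under 0.05 it was 0 with non-normalized signals, 1 with 1 probe per gene and 1 to 3 with an array left out, against 2. Small differences changed sign: Vegfb to 0.12 with median scaling (which moved the median of all probes by 0.12) and 0.03 with non-normalized signals, Nrp1 ILMN_1247094 to 0.00 with quantile normalization, 0.01 with neqc, 0.10 with median scaling, 0.02 with non-normalized signals and 0.07 with array weights. With an array left out the ranges were -0.11 to 0.08 for that probe, -0.03 to 0.04 for Nrp1 ILMN_1237197, -0.05 to 0.09 for Nrp1 ILMN_2669912 and -0.08 to 0.03 for Nrp2 ILMN_2766737. Over all probes, calls past the adjusted p numbered 24 as reported, 0 with median scaling (123 higher at an unadjusted p under 0.05), 2 with non-normalized signals (5), 11 with 50 added, 98 with array weights (858), 0 with the methods' t-test after Benjamini-Hochberg (602) and 10 to 85 with an array left out (278 to 768). The higher probes at an unadjusted p under 0.05 were 503 as reported, 1318 with no filter and 229 with 1 probe per gene. Over the normalizations and with 50 added, the median of the hypoxia targets was 0.15 to 0.36 and that of the endothelial genes -0.69 to -0.33. The causes were not tested. Replicate numbers did not pair the mice (correlations of same-numbered deviations -0.211, -0.15 and -0.279), and a fit with the number as a replicate block called 13 probes in all and 0 of the members. Fold changes of Kdr and Nrp2, near background, are limited by signal.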
